A study of Mus musculus with 8 samples.

Results

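The stefin A genes are a cluster of closely related mouse genes that encode small cytosolic inhibitors of cysteine proteases. Members were taken by symbol: every gene of the deposited count table whose symbol starts with Stfa, together with BC100530, BC117090, Gm5483, Gm5416, and Csta1 where present. This gave 5 of the 16536 genes of the table, namely *Stfa1*, *Stfa2*, *Stfa2l1*, *Stfa3*, and *BC100530* (named *Cstdc5* in RefSeq). The remaining 4 symbols were not in the table. The family was picked because *Stfa3* and *BC100530* were among the genes with the largest difference between the groups in these same libraries. The values of the members in that comparison are therefore a description, and where a call of a member is given, nothing is read from it.

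The libraries came from mCherry+CD73+ cells sorted from the femoral growth plates of Pthrp-mCherry mice, a strain in which the fluorescent protein mCherry reports expression of *Pthlh*, the gene of PTHrP. CD73, encoded by *Nt5e*, is a surface marker of resting zone chondrocytes. SAG, an agonist of Smoothened that turns on Hedgehog (Hh) signaling, was given i.p. daily from P30 to P36 to 4 mice, another 4 mice received the vehicle DMSO over the same days, and all mice were sacrificed at P38. Both femoral growth plates of a mouse were combined into 1 library, so each group had 4 libraries, and both groups carried the reporter.

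Library totals lay between 24971992 and 46593090 counts, at which 3 counts correspond to between 0.0670 and 0.114 CPM (counts per 1000000 counts of the TMM-scaled library), a floor that covers counting error only. DMSO replicate 4 stood apart, with the fewest counted genes (14416, against 15524 to 16285 in the other libraries). The markers of the sort were counted in every library. *Pthlh* lay between 14.9 and 22.1 CPM with DMSO and between 18.4 and 29.9 CPM with SAG. *Nt5e* lay between 184 and 270 CPM with DMSO and between 149 and 174 CPM with SAG. Its groups did not overlap (log2 fold change -0.51, edgeR, adjusted p = 0.186), and 3.84% of all genes tested had this order. Cartilage genes were abundant. *Col2a1*, the gene of type II collagen, lay between 32463 and 68832 CPM with DMSO and between 11759 and 34149 CPM with SAG. Over all 15421 genes tested, edgeR's quasi-likelihood test called 404 (2.62%) higher and 41 (0.266%) lower in SAG-treated mice. With an unadjusted p under 0.05 from this test, 1477 genes were higher and 1003 lower.

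Stefins, the type 1 cystatins, lack a signal peptide and act inside the cell, where they bind tightly and reversibly to papain-like proteases such as cathepsins B, H, L, and S. They are thought to guard the cytosol against proteases that leak from lysosomes and granules. Stefin A is best known from the cornified layer of the epidermis and from cells of the neutrophil lineage. In the mouse the gene has multiplied by local duplication, while stefin B is encoded elsewhere by *Cstb*.

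All 5 members lie on chromosome 16 of GRCm38 within 299 kb. In GENCODE M21, *Stfa2l1* spans 36156811 to 36161953 and *Stfa1* spans 36276951 to 36285373, both on the plus strand. *BC100530* spans 36359382 to 36367748, *Stfa2* spans 36403992 to 36408457, and *Stfa3* spans 36450537 to 36455392, all on the minus strand. Each is annotated as protein coding with 3 coding exons. The first coding exon has 66 bases in *Stfa1* and *BC100530* and 84 bases in the other members, the second has 102 bases in all 5, and the third has 123 bases in all 5. The second coding exon is given on the coding strand, because it is of equal length in every member and lets the genes be compared base by base. Capitals mark the 24 positions at which the 5 members are not all alike.
Stfa1, chr16:36280466-36280567 (+): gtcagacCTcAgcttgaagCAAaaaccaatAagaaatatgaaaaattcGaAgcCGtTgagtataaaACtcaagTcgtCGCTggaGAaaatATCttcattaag
BC100530, chr16:36364212-36364313 (-): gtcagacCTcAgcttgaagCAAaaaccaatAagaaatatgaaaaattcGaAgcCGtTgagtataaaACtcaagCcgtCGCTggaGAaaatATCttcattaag
Stfa2, chr16:36405130-36405231 (-): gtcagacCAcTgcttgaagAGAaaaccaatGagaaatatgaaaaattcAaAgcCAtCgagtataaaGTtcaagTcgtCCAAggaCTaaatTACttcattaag
Stfa2l1, chr16:36159946-36160047 (+): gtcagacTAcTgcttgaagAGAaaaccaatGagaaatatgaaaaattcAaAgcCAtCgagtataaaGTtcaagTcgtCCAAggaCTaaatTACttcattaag
Stfa3, chr16:36452151-36452252 (-): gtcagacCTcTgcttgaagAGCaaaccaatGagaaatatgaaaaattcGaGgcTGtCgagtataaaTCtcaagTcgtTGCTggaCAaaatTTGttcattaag

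The sequences fall into 2 near-identical pairs and a lone member. *Stfa1* and *BC100530* differ at 1 position of this exon, and over the whole coding sequence 97.9% of the aligned bases are identical. *Stfa2* and *Stfa2l1* also differ at 1 position here, and are identical at 96.4% of their coding bases. *Stfa3* differs from the other members at 13 to 16 of the 102 positions, and its coding sequence is between 80.9% and 84.5% identical to theirs.

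This likeness bears on how far the count of a single member can be trusted. The submitters' processing notes name kallisto, which matches reads to transcripts through short stretches of sequence and shares a read among the transcripts that hold its stretches. Of the 31-base stretches of *Stfa3* in the GENCODE M21 transcripts, 382 of 382 occur in no other gene. Here and for the shares below, transcripts were searched on their own strand only. *Stfa1* shares 277 of its 710 stretches (39%) with *BC100530*, and *Stfa2* shares 114 of its 441 stretches (25.9%) with *Stfa2l1*. No such stretch is common to members of different pairs. Stretches found in no other gene make up 56.2% for *Stfa1*, 57% for *BC100530*, 66.7% for *Stfa2*, and 58.4% for *Stfa2l1*. *Stfa1* and *BC100530* also share 140 and 150 stretches with *BC117090*, a symbol that was not in the count table. *Stfa2* and *Stfa2l1* share 23 and 50 stretches with *Gm49652*, and 20 and 9 with *Gm4758*, which were not in the table either. The split of counts within a pair is therefore uncertain, and the sum of each pair is given beside its members. *BC100530* is also overlapped by a gene on the opposite strand, *Gm15845*, and the strand setting of the counting is not given in the sources used here.

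*Stfa3*, the member with a sequence of its own, was not counted in any DMSO-treated mouse. Its counts were 0 in each of DMSO replicates 1 to 4, and 703, 199, 108, and 527 in SAG replicates 1 to 4. These correspond to 20.2, 4.73, 2.69, and 12.02 CPM, a mean of 9.91 ± 7.95 CPM (SD, n = 4). The groups did not overlap. Set against 3 counts per DMSO library, or 0.0853 CPM on average, the level with SAG was at least 116-fold higher, and at least 75.9-fold higher without SAG replicate 1. Each library is a bulk sample of sorted cells, in which fewer cells of a type and less RNA per cell cannot be told apart, here and for every later value. A gene at 0 in all 4 DMSO libraries could be part of the table only through the SAG libraries, since every gene of the table has a count above 0 in at least 4 libraries.

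*BC100530* was present at low counts in every DMSO-treated mouse, at 171, 25, 38, and 178 counts in DMSO replicates 1 to 4. In SAG replicates 1 to 4 it had 4531, 1263, 543, and 1573 counts. The level was 3.11 ± 2.85 CPM with DMSO and 52.4 ± 52.7 CPM with SAG (SD, n = 4 each), a 16.8-fold difference of the means. The lowest SAG library (13.5 CPM) lay above the highest DMSO library (6.76 CPM). SAG replicate 1, at 130 CPM, carried most of the spread, and without it the fold of the means was 8.51.

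*Stfa1*, the partner of *BC100530* in sequence, had 251, 337, 164, and 0 counts in DMSO replicates 1 to 4 and 2173, 954, 1350, and 1482 counts in SAG replicates 1 to 4. This was 4.58 ± 3.24 CPM with DMSO and 38.1 ± 17.03 CPM with SAG (SD, n = 4 each), an 8.32-fold difference. The absence of *Stfa1* in DMSO replicate 4 coincided with the highest DMSO count of *BC100530* (178). In DMSO replicate 1, however, *BC100530* had a count close to this (171) beside 251 counts of *Stfa1*. Summed, the pair varied less among the DMSO-treated mice than either gene did, with 9.84, 8.08, 6.10, and 6.76 CPM in DMSO replicates 1 to 4. The sum was 193, 52.7, 47.2, and 69.7 CPM in SAG replicates 1 to 4, an 11.8-fold difference of the means (7.34-fold without SAG replicate 1) that does not depend on how reads were split within the pair.

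*Stfa2l1* was the most evenly expressed member. Its counts were 534, 110, 179, and 241 in DMSO replicates 1 to 4 and 2780, 2506, 1673, and 1772 in SAG replicates 1 to 4. The level was 7.37 ± 4.36 CPM with DMSO and 55.4 ± 18.5 CPM with SAG (SD, n = 4 each), a 7.52-fold difference. Within the SAG group the highest library was 1.98-fold above the lowest, against 2.75-fold for *Stfa1*, 7.51-fold for *Stfa3*, 8.53-fold for *Stfa2*, and 9.63-fold for *BC100530*.

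*Stfa2* was at 0 in 2 DMSO-treated mice, with 65, 0, 229, and 0 counts in DMSO replicates 1 to 4. It had 3532, 979, 478, and 1255 counts in SAG replicates 1 to 4. The level was 2.11 ± 3.28 CPM with DMSO and 41.3 ± 40.7 CPM with SAG (SD, n = 4 each), a 19.6-fold difference of the means and 10.1-fold without SAG replicate 1. The margin between the groups was the narrowest of the family, with the lowest SAG library 1.72-fold above the highest DMSO library. Together with *Stfa2l1*, the sum was 14.0, 2.46, 12.3, and 9.15 CPM in DMSO replicates 1 to 4 and 181, 82.8, 53.6, and 69.0 CPM in SAG replicates 1 to 4, a 10.2-fold difference of the means.

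**Figure D1:**
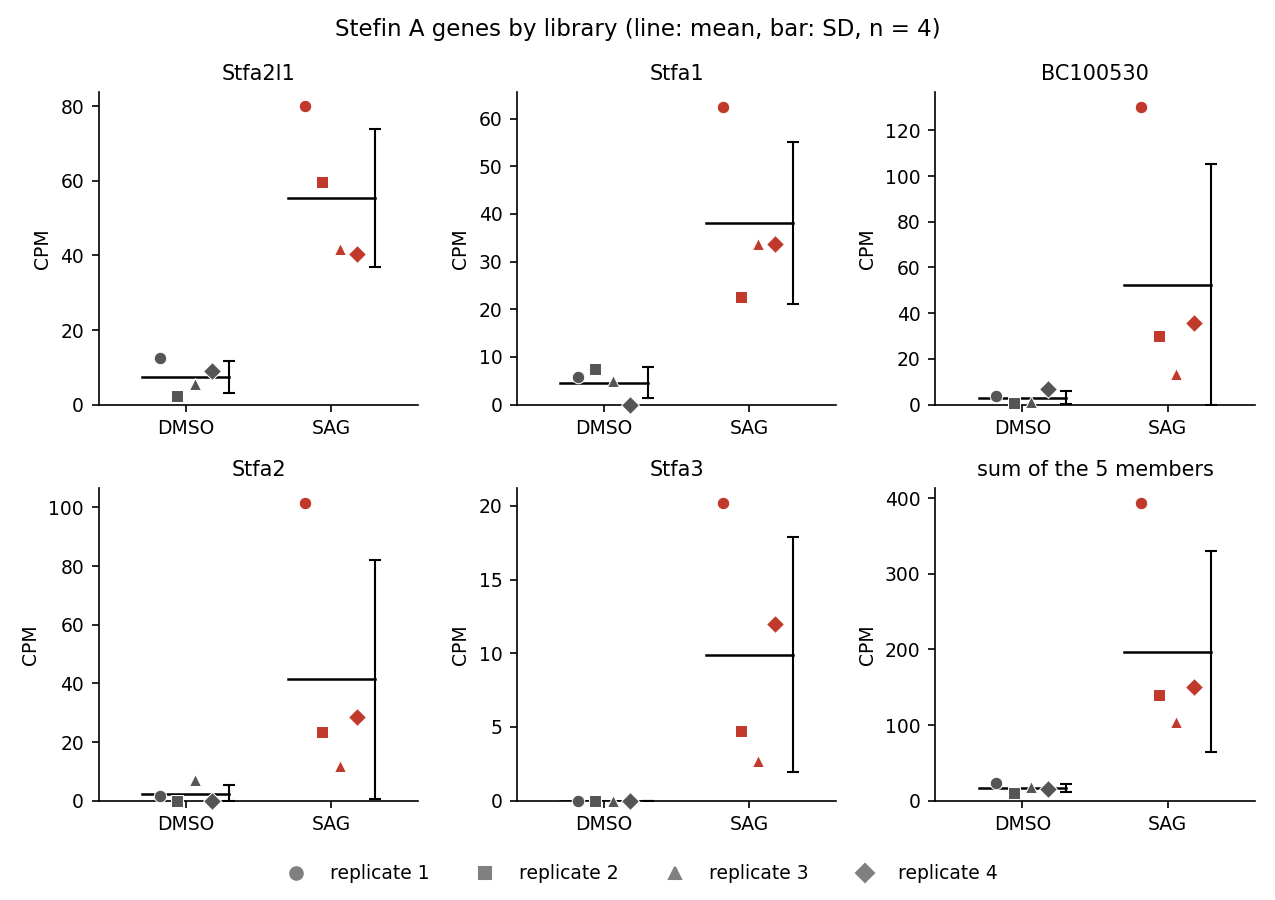
CPM (vertical axes, linear, each panel with its own range) of the 5 stefin A genes and of their sum in the 4 DMSO (gray) and 4 SAG (red) libraries, with marker shape for the replicate, a line for the mean, and a bar for the SD, shortened at 0 where the SD is larger than the mean. Every SAG library lies above every DMSO library in each panel, and SAG replicate 1 (circle) is the highest SAG library in all 6.

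All 5 members passed edgeR's filter on low counts, and in all 5 every SAG library lay above every DMSO library, as was the case for 7.9% of the 15421 genes tested, with the reverse order in 3.84%. By edgeR's quasi-likelihood test over all genes, *Stfa2l1*, *Stfa3*, and *BC100530* had an adjusted p under 0.05, and 2.62% of all genes tested were called higher, 0.266% lower, and 2.89% in either direction. Since the members were chosen from this contrast, nothing is read from these counts, nor from the calls with a library left out. When 1 library was left out at a time, between 1 and 4 members were called. Leaving out DMSO replicate 3 left only *Stfa3*. Leaving out DMSO replicate 4 added *Stfa1*. *BC100530* was not called without any 1 of DMSO replicates 1 to 3 or SAG replicates 1, 2, and 4. The fitted log2 fold changes were 2.91 for *Stfa2l1*, 3.05 for *Stfa1*, 4.08 for *BC100530*, and 4.29 for *Stfa2*. With *Stfa3* placed at its bound of 6.86 on the log2 scale, the median of the members was 4.08, where the median of all genes tested was -0.08.

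Summed over the 5 members, the family had 1021, 472, 610, and 419 counts in DMSO replicates 1 to 4 and 13719, 5901, 4152, and 6609 counts in SAG replicates 1 to 4. This was 17.2 ± 5.51 CPM with DMSO and 197 ± 133 CPM with SAG (SD, n = 4 each), an 11.5-fold difference of the means. Without SAG replicate 1, at 394 CPM, the fold was 7.66. *Stfa2l1* made up the largest mean share of the family's counts in both groups, 40.6% ± 16.8 (SD, n = 4) with DMSO and 32.5% ± 10.7 (SD, n = 4) with SAG. *Stfa3* made up 4.77% ± 2.38 (SD, n = 4) of the counts in SAG-treated mice.

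Per kilobase of the main transcript, the order of the mean levels in SAG-treated mice was *Stfa2l1* (132 ± 44.2 CPM per kb), *Stfa2* (87.7 ± 86.5), *BC100530* (84.7 ± 85.2), *Stfa1* (61.8 ± 27.6), and *Stfa3* (24.1 ± 19.3; SD, n = 4 for each). The ranges of every neighbouring pair in this order overlapped. Since all members were measured in the same libraries, overlapping ranges do not show whether neighbours differed within each library. *Stfa2l1*, with a lowest library of 96.5 CPM per kb, and *Stfa3*, with a highest library of 49.0 CPM per kb, did not overlap.

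The members differed in how their counts were distributed over the 8 libraries. For each gene the CPM of a library was expressed as a percentage of the gene's sum over the 8 libraries, and the distance of 2 genes was the summed absolute difference of these percentages divided by 2, so that 0% means the same distribution. *Stfa2* and *BC100530*, which belong to different sequence pairs and share no 31-base stretch, were the closest members. Their distance was 4.55%, and each was the nearest gene to the other among the 13904 genes ranked. SAG replicate 1 held 58.4% of the CPM of *Stfa2* and 58.6% of that of *BC100530*. Without this library their distance was 10.7%, and each ranked 3 in the list of the other. The sequence partners were farther apart, at 25.4% for *Stfa1* and *BC100530* and 28.8% for *Stfa2* and *Stfa2l1*.

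*Stfa3* lay nearest to *Stfa2* (13.8%) and *BC100530* (14.9%), followed by *Rps12l1* (16.5%), *4933408B17Rik* (17.8%), *Chrm3* (19.6%), and *Khdc3* (21.0%). *Stfa2* was followed, after *BC100530*, by *Rps12l1* (7.76%), *Stfa3*, *Orm2* (16.4%), *Khdc3* (20.1%), and *Plin5* (21.3%), and *BC100530* had the same neighbours in the same order, at 11.2% for *Rps12l1*, 15.8% for *Orm2*, 19.7% for *Khdc3*, and 22.0% for *Plin5*. *Orm2* encodes an acute phase protein and *Plin5* a protein of lipid droplets. *Stfa2l1* had a different set, namely *Stap2* (10.9%), *Fcnb* (11.7%), *Ffar2* (11.7%), *Card10* (12.2%), *Asprv1* (12.7%), and *Aldh4a1* (12.8%). Of these, *Fcnb* encodes a ficolin of neutrophil granules and *Ffar2* a receptor for short-chain fatty acids. Around *Stfa1* were *Chrm3* (10.1%), *Bbs5* (14.0%), *Siah1b* (14.4%), *Tcim* (15.3%), *Stfa2l1* (15.6%), and *Hopx* (15.8%). Several of these ranks rested on SAG replicate 1. Without it, *Stfa2* ranked 8 (22.2%) and *BC100530* ranked 9 (22.8%) in the list of *Stfa3*. *Stfa3* then ranked 153 in the list of *Stfa2* and 266 in that of *BC100530*, and *Stfa2l1* ranked 280 (21.1%) in that of *Stfa1*. The distances to genes outside the family are not given without this library. All distances above rest on 8 libraries that differ in treatment and carry no test.

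**Figure D2:**
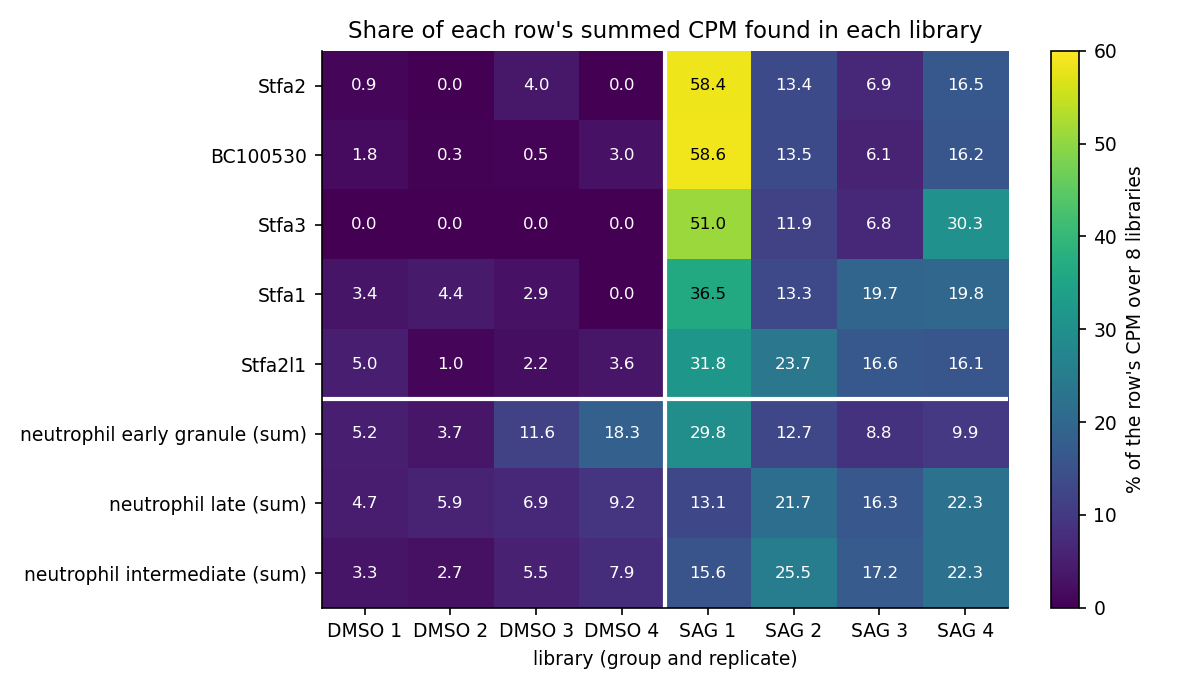
Heat map of the percentage of each row's summed CPM that each library (columns) holds, for the 5 stefin A genes (above the white line) and for the summed CPM of neutrophil marker genes of 3 maturation stages (below it). SAG replicate 1 holds 31.8% to 58.6% of the stefin A rows, 29.8% of the early granule markers, and 15.6% and 13.1% of the intermediate and late markers.

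Because stefin A genes are known in the neutrophil lineage, the markers of that lineage are given beside them. Neutrophil markers were higher in SAG-treated mice. Of 30 neutrophil markers tested, 18 were called higher and 0 lower by edgeR's quasi-likelihood test over all genes (25 higher and 0 lower with an unadjusted p under 0.05, 24 and 0 by DESeq2, 25 and 0 by limma voom), with a median log2 fold change of 1.78. Their summed level lay between 7353 and 18608 CPM in DMSO-treated and between 34180 and 53049 CPM in SAG-treated mice. None of the 30 was at 0 throughout a group. *S100a8*, whose calcium-binding product is a major cytosolic protein of neutrophils, was measured at 1098 ± 521 CPM with DMSO and 5231 ± 991 CPM with SAG (SD, n = 4 each), and its log2 level rose by 2.25 (edgeR, adjusted p = 0.0102). *Cxcr2*, a chemokine receptor of mature neutrophils, rose by 1.57 (edgeR, adjusted p = 0.0106), and *Retnlg* rose by 2.01 (edgeR, adjusted p = 0.0102). The calls of *S100a8*, *S100a9*, and *Retnlg* held whichever library was left out. That of *Cxcr2* did not hold without DMSO replicate 3 (edgeR, adjusted p = 0.0501).

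By stage of neutrophil maturation, a difference between the lists was not tested. In the intermediate list 10 of 12 genes were called higher by edgeR (12 by DESeq2, 12 by limma voom, and 12 with an unadjusted p under 0.05), with a median log2 fold change of 2.04, among them *Ngp*, the gene of a granule protein, with 1741 ± 998 CPM with DMSO and 7021 ± 1751 CPM with SAG (SD, n = 4 each). Among the late markers 7 of 12 were called higher by edgeR (11 by DESeq2, 12 by limma voom, and 12 with an unadjusted p under 0.05; median 1.48), including *Mmp8*, the gene of neutrophil collagenase, at 285 ± 149 CPM and 1119 ± 264 CPM (SD, n = 4 each). Of the early granule markers 1 of 6, *Fcnb*, was called by edgeR, and 1 of 6 also by DESeq2, by limma voom, and with an unadjusted p under 0.05 (median 0.65). *Elane*, the gene of neutrophil elastase, was measured at 107 ± 85.5 CPM with DMSO and 195 ± 156 CPM with SAG (SD, n = 4 each), with overlapping groups (log2 fold change 0.87, edgeR, adjusted p = 0.551). *Ly6g* was higher by a fitted log2 value of 2.23, short of the threshold (edgeR, adjusted p = 0.116), and without DMSO replicate 4, at 32.5 CPM, this was 3.61 (edgeR, adjusted p = 8.17e-04). *Mmp8* lost its call without DMSO replicate 2, DMSO replicate 3, or SAG replicate 4 (edgeR, adjusted p between 0.0540 and 0.0646), and *Ngp* without DMSO replicates 1, 2, or 3 or SAG replicates 2 or 4 (edgeR, adjusted p between 0.0544 and 0.0827).

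Relative to these markers, the values of the stefin A sum overlapped between the groups. Per 1000 counts of the 30 neutrophil markers, the family sum was 2.97, 1.43, 1.41, and 0.855 counts in DMSO replicates 1 to 4 and 11.5, 2.64, 2.84, and 3.16 counts in SAG replicates 1 to 4. DMSO replicate 1 lay above SAG replicates 2 and 3. On average this was 1.67 ± 0.912 with DMSO and 5.05 ± 4.33 with SAG (SD, n = 4 each), a log2 ratio of 1.598, which was 0.79 without SAG replicate 1. *Stfa1*, *Stfa2*, *Stfa2l1*, and *BC100530* each overlapped as well, with folds of the means between 1.82 for *Stfa1* and 6.05 for *Stfa2*. Without SAG replicate 1, the fold of *Stfa2* was 2.54, that of *BC100530* moved from 5.37 to 2.20, and the folds of *Stfa1* and *Stfa2l1* were 1.29 and 1.49. *Stfa3* did not overlap, since it was at 0 in the DMSO-treated mice, and its SAG values lay between 0.0738 and 0.591 per 1000 marker counts. Set against 3 counts per DMSO library, its mean with SAG was at least 32.6-fold higher on this scale, and at least 17.9-fold higher without SAG replicate 1.

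The same ratio was taken for each stage of the markers. Per 1000 counts of the early granule markers, the family sum lay between 10.6 and 56.2 with DMSO and between 134 and 185 with SAG, a 5.17-fold difference of the means without overlap and with the smallest relative spread among SAG-treated mice. Relative to the late markers it lay between 4.04 and 11.99 with DMSO and between 14.9 and 70.6 with SAG, again without overlap. Relative to the intermediate markers, between 1.21 and 4.26 with DMSO and between 3.28 and 15.1 with SAG, the groups overlapped. The part of the neutrophil markers in the stefin A values was not tested.

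**Figure D3:**
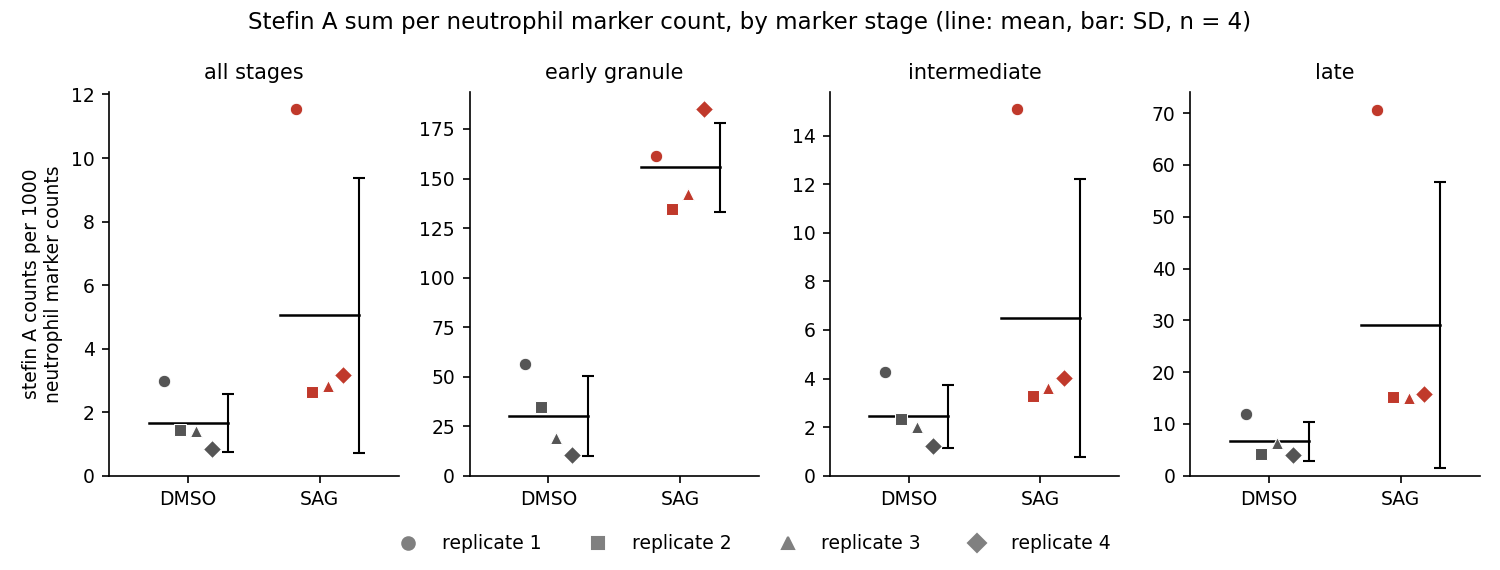
Summed counts of the 5 stefin A genes per 1000 counts of neutrophil markers (vertical axes, linear, each panel with its own range) in the 4 DMSO (gray) and 4 SAG (red) libraries, for markers of all stages and of each stage, with the mean (line) and SD (bar). The groups overlap for all stages and for the intermediate stage, and are separate for the early granule and late stages.

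Markers of the epidermis, the other tissue rich in stefin A, had low summed levels. Of 14 keratinocyte markers 8 were in the table, their summed level lay between 12.4 and 28.5 CPM in DMSO-treated and between 9.92 and 25.5 CPM in SAG-treated mice, and 0 of the 7 tested were called in either direction by edgeR, by DESeq2, by limma voom, or with an unadjusted p under 0.05. *Krt5*, a keratin of basal keratinocytes, was measured at 3.62 ± 3.74 CPM with DMSO and 0.931 ± 0.715 CPM with SAG (SD, n = 4 each). Of the other cell types, monocyte and macrophage markers lay between 393 and 688 CPM with DMSO and between 697 and 1029 CPM with SAG, without overlap. Of these markers 1 of 12, *Ly6c2*, was called higher by edgeR (2 higher with an unadjusted p under 0.05, 2 by DESeq2, and 2 by limma voom). Chondrocyte markers lay between 49171 and 115814 CPM with DMSO and between 20125 and 56091 CPM with SAG (0 of 12 called by edgeR, with 11 lower with an unadjusted p under 0.05, 6 lower by DESeq2, and 8 lower by limma voom). The summed levels of markers of T and NK cells, of eosinophils, basophils, and mast cells, of erythroid cells, and of endothelial cells overlapped between the groups, and 0 of the 37 genes tested in these lists were called by edgeR (1 higher and 2 lower with an unadjusted p under 0.05, 1 lower by DESeq2, and 0 by limma voom). The part of these markers in the stefin A values was not tested.

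The genes of cathepsins B, H, L, and S, named above as bound by stefins, were not called. The list tested was wider than these. Of 12 cysteine cathepsins and related proteases tested, 0 were called in either direction by edgeR, by DESeq2, by limma voom, or with an unadjusted p under 0.05, and their median log2 fold change was -0.25. *Ctsb*, the gene of cathepsin B, was measured at 247 ± 101.3 CPM with DMSO and 265 ± 67.7 CPM with SAG (SD, n = 4 each; log2 fold change 0.10, edgeR, adjusted p = 0.912). Cathepsin L, from *Ctsl*, had 106 ± 17.8 and 128 ± 22.4 CPM (log2 fold change 0.26, edgeR, adjusted p = 0.581), and cathepsin S, from *Ctss*, had 78.5 ± 17.6 and 59.7 ± 23.1 CPM (log2 fold change -0.39, edgeR, adjusted p = 0.561). For *Ctsh*, the gene of the aminopeptidase cathepsin H, the values were 75.2 ± 17.4 and 112 ± 46.3 CPM (log2 fold change 0.57, edgeR, adjusted p = 0.34996). *Ctsk*, the collagen-degrading cathepsin of osteoclasts, was at 34.9 ± 10.3 and 28.1 ± 15.96 CPM (edgeR, adjusted p = 0.806), and *Ctsc*, whose product activates the serine proteases of neutrophil granules, at 34.7 ± 22.0 and 38.6 ± 14.1 CPM (edgeR, adjusted p = 0.913). Of the serine and aspartic cathepsins 0 of 5 were called by edgeR (1 higher with an unadjusted p under 0.05, 0 by DESeq2, and 1 higher by limma voom), and *Ctsg*, the serine protease cathepsin G, was at a fitted log2 difference of 0.44 (edgeR, adjusted p = 0.712).

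Cystatins outside the stefin A cluster were likewise not called, with 0 of 6 tested genes in either direction by edgeR, by DESeq2, by limma voom, or with an unadjusted p under 0.05. *Cstb*, the gene of stefin B and the nearest relative outside the cluster, was measured at 20.2 ± 4.72 CPM with DMSO and 15.8 ± 1.62 CPM with SAG (SD, n = 4 each; log2 fold change -0.35, edgeR, adjusted p = 0.647). The secreted cystatin C, from *Cst3*, was the most abundant of those named, with 863 ± 246 and 683 ± 254 CPM (log2 fold change -0.34, edgeR, adjusted p = 0.682). *Cst7*, the gene of cystatin F of immune cells, was at 7.39 ± 4.74 and 8.69 ± 4.24 CPM (log2 fold change 0.23, edgeR, adjusted p = 0.909).

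Among 26 other protease inhibitors, 3 were called higher and 0 lower by edgeR (4 higher and 1 lower with an unadjusted p under 0.05, 4 and 0 by DESeq2, 3 and 1 by limma voom), and the median log2 fold change of the list was -0.49. Over all 15421 genes tested, 2.62% were called higher and 0.266% lower by edgeR, and 1477 genes were higher and 1003 lower with an unadjusted p under 0.05. *Wfdc21* rose from 124 ± 62.4 to 551 ± 80.2 CPM (SD, n = 4 each; log2 fold change 2.15, edgeR, adjusted p = 0.0102), and kept its call whichever library was left out. *Slpi*, which encodes an inhibitor of neutrophil elastase, rose from 126 ± 47.5 to 338 ± 67.3 CPM (log2 fold change 1.42, edgeR, adjusted p = 0.0167). *Serpinb1a*, the gene of an intracellular inhibitor of the same class of serine proteases, rose from 40.1 ± 18.5 to 128 ± 39.1 CPM (log2 fold change 1.67, edgeR, adjusted p = 0.0208). In all 3 genes every SAG library lay above every DMSO library, as was the case for 7.9% of all genes tested. *Slpi* lost its call without DMSO replicates 1, 2, or 3 or SAG replicates 2 or 4 (edgeR, adjusted p between 0.0528 and 0.0824), and *Serpinb1a* without DMSO replicates 1, 2, or 3 or SAG replicates 1, 2, or 4 (edgeR, adjusted p between 0.0522 and 0.0993).

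**Figure D4:**
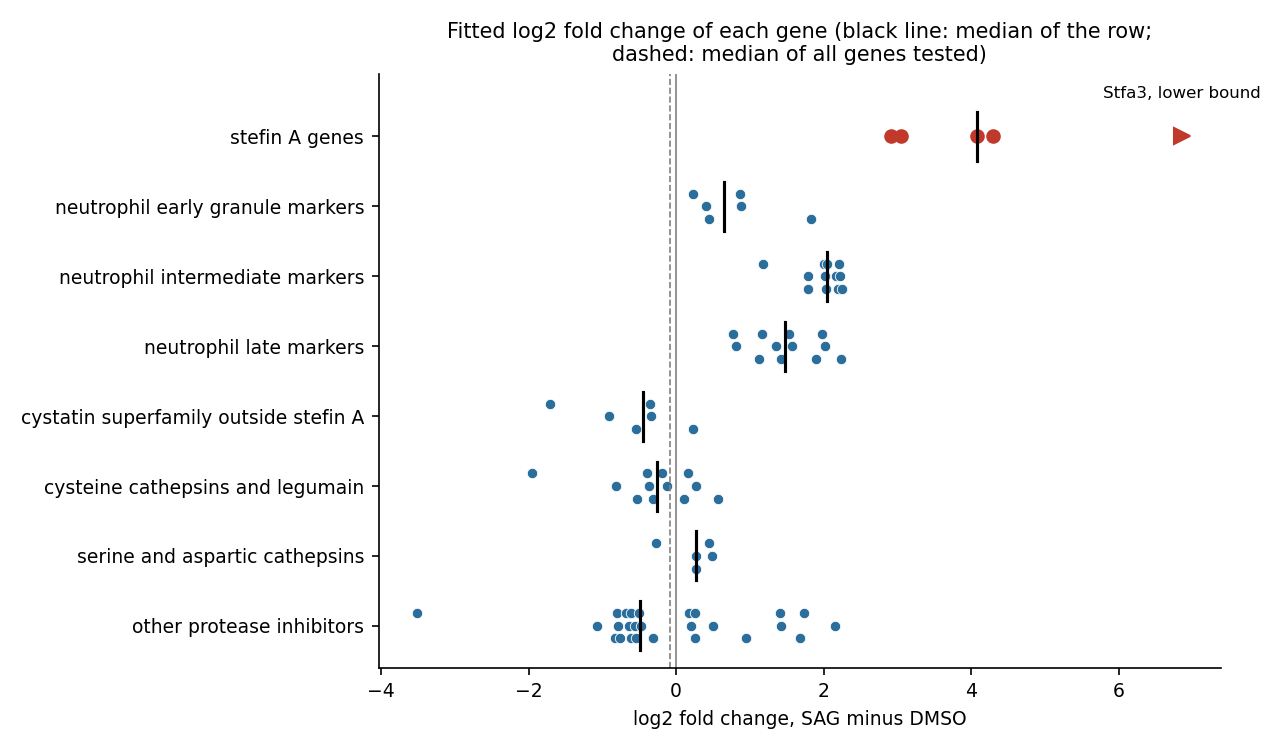
Fitted log2 fold change (SAG minus DMSO, horizontal axis) of the stefin A genes (red, *Stfa3* as a triangle at its lower bound of 6.86) and of the genes of 3 neutrophil and 4 cystatin, cathepsin, and protease inhibitor lists (blue, 1 point per gene), with the median of each row in black and that of all genes tested, -0.08, dashed. The stefin A genes lie from 2.91 upward, and the medians of the cystatin and cathepsin rows lie between -0.45 and 0.27.

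On the chromosome, the neighbours of the stefin A genes were not called. The 5 nearest genes of the table before the cluster (*Parp9*, *Kpna1*, *Wdr5b*, *Fam162a*, and *Ccdc58*) and the 5 after it (*Casr*, *Cd86*, *Ildr1*, *Slc15a2*, and *Eaf2*) had log2 fold changes between -2.32 and 1.40, and 0 of the 10 were called by edgeR, by DESeq2, by limma voom, or with an unadjusted p under 0.05. *Cd86*, the gene of a costimulatory ligand of antigen-presenting cells and the second gene after the cluster, was at 13.7 ± 5.60 CPM with DMSO and 13.9 ± 4.11 CPM with SAG (SD, n = 4 each; log2 fold change 0.019, edgeR, adjusted p = 0.990). *2010005H15Rik*, a gene of the cystatin family that lies inside the cluster between *Stfa2l1* and *Stfa1*, was named after its values were seen. It was at 0.513, 0.982, 0.423, and 4.59 CPM in DMSO replicates 1 to 4 and at 0, 0.523, 2.86, and 1.16 CPM in SAG replicates 1 to 4, so the groups overlapped (log2 fold change -0.51, edgeR, adjusted p = 0.916, and 0.86 without DMSO replicate 4).

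**Figure D5:**
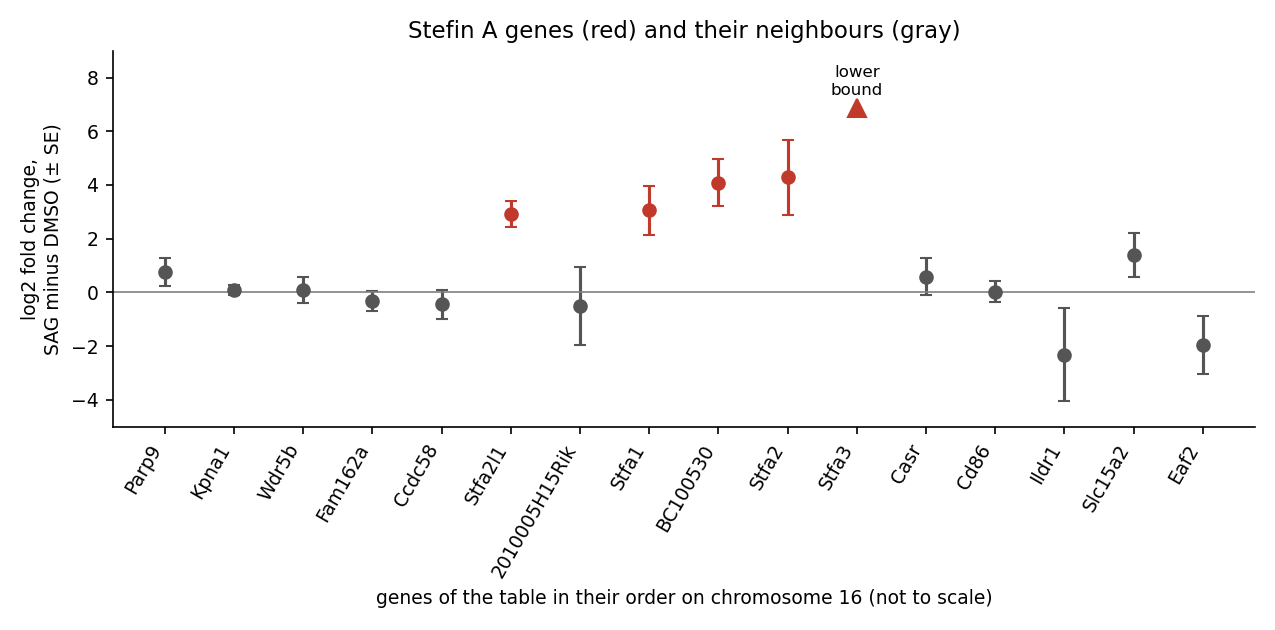
Fitted log2 fold change (SAG minus DMSO, vertical axis, with its SE) of the stefin A genes (red) and of the other genes of the table (gray) in their order along chromosome 16, spaced evenly. The 5 stefin A genes lie between 2.91 and 4.29 or, for *Stfa3* (triangle), at a lower bound of 6.86, and the 10 flanking genes and *2010005H15Rik* between -2.32 and 1.40.

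The promoters of the members were compared because the genes had higher levels together. Over the 250 bases upstream of the RefSeq start sites, 82.2% to 96.1% of aligned bases were identical between members. The longest stretch common to all 5 was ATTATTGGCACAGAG, which starts between positions -247 and -222 relative to the start site. It occurred in 5 of the 32851 promoters of the RefSeq table for GRCm38.p6, those of the members. The stretch was chosen as one that these 5 promoters share, so its presence in them was given. The part of the stretch in the levels of the genes was not tested. The upstream sequences of *Stfa2l1* and *Stfa3* are given on the strand of the gene, with this stretch in capitals, since RefSeq and GENCODE place the start sites of these 2 genes at the same base. For the other members the RefSeq start site lies 94 to 197 bases downstream of the GENCODE one.
Stfa2l1, chr16:36156561-36156810 (+): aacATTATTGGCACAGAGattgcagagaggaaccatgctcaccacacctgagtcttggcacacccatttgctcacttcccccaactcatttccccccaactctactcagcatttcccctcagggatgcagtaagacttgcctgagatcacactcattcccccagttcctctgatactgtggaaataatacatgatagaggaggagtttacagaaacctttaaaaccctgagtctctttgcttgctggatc
Stfa3, chr16:36455393-36455642 (-): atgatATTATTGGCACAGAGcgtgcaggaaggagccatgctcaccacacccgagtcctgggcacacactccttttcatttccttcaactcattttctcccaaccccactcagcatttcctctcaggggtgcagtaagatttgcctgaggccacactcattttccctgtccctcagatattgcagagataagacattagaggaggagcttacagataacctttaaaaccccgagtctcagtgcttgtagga

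Both strands of the 250 bases were searched for 5 short motifs. TTTAAAA was found in all 5 members and in 8.1% of all promoters. It started at position -33 in *Stfa2l1*, -31 in *Stfa3*, -30 in *Stfa1*, -29 in *Stfa2*, and -9 in *BC100530*. TATAAA, the core of the TATA box, was found in 0 of the 5 and in 12.4% of all promoters. TTGCNNAA, a form of the C/EBP motif, and GAGGAAG, a form of the PU.1 motif, were each found in *Stfa1* and *BC100530* only among the members, and in 9.56% and 10.6% of all promoters. In *Stfa1* they started at -109 and -179, and in *BC100530* at -88 and -249. The GENCODE start sites lie 197 and 178 bases upstream of the RefSeq ones, so only the match at -249 lies upstream of both. GACCACCCA, the motif of the Gli factors of Hh signaling, was found in 0 of the 5 and in 0.225% of all promoters. A match or its absence describes the letters of these windows.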

How the data were processed

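Sorted mCherry+CD73+ cells of 4 DMSO-treated and 4 SAG-treated mice were sequenced, with 1 library per mouse (stranded total RNA, picogram input). The authors deposited raw counts per gene symbol and library. The submitters' processing notes name kallisto, DESeq2, and GRCm38, without versions. All 8 libraries were matched to treatment and replicate number by their labels.

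Counts were fitted in R 4.3.3 with edgeR 4.0.16 (filterByExpr, which kept 15421 of 16536 genes, TMM scaling, robust quasi-likelihood test, Benjamini-Hochberg adjustment over all genes, threshold 0.05). CPM used the TMM-scaled library sizes. A fold against a group at 0 was computed against 3 counts per library. Positions, transcripts, and exons were taken from GENCODE M21, promoters from RefSeq (GRCm38.p6), and sequences were aligned with Biopython 1.88. Profiles were ranked for genes with a mean count of at least 50.

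The members, gene lists, and tests were chosen with earlier results of these data known. Named were every member, the called genes and fixed examples of the cystatin, cathepsin, and inhibitor lists, fixed marker genes, the 6 genes nearest in profile to each member, 5 flanking genes on each side, and *Pthlh* and *Nt5e*. Alternatives were DESeq2 1.42.0, limma 3.58.1 voom with sample quality weights, other scalings, filters, and prior counts, a replicate block, and each library left out in turn. Pair sums, *S100a8* as the only marker, and profiles and neutrophil ratios of single members without SAG replicate 1 were added after seeing the data. The replicate numbers do not mark shared litters or batches in the labels. The result of a further marker list is not reported here.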

Additional observations from a re-analysis of the deposited data

Results flagged for a closer look

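In each group of 4 libraries, the gap between the most extreme library and its nearest neighbour was set in proportion to the whole range and compared with Dixon's 95% critical value. Of 100 groups examined, 13 exceeded it, where chance gives about 5 (1 in 20), and many of these values are not independent of each other.

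SAG replicate 1 was the extreme library in 6 of them. It had 394 CPM of the stefin A sum against 151 in the next SAG library, and 193 CPM of *Stfa1* plus *BC100530* against 69.7. Per 1000 neutrophil marker counts it had 11.5 counts of the stefin A sum against 3.16, 3.81 of *BC100530* against 0.753, and 2.97 of *Stfa2* against 0.600. It also had 428 CPM of *Elane* against 137.

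DMSO replicate 1 had 1.56 counts of *Stfa2l1* per 1000 neutrophil marker counts against 0.492 in the next DMSO library, and 398 CPM of *Ctsb* against 203. DMSO replicate 2 had 101.2 CPM of *Ctsh* against 68.3. DMSO replicate 4 had 32.5 CPM of *Ly6g* against 7.13, 11.2 CPM of *Ildr1* against 0.393, and 4.59 CPM of *2010005H15Rik* against 0.982. SAG replicate 2 had 12.001 CPM of *Fam162a*, below the next SAG library at 31.4.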

How the results depend on the processing

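The stefin A members kept log2 fold changes above 0 in every alternative in which they could be fitted. Since the groups did not overlap in any member, leaving out a library could not turn the sign, and nothing is read from it. At least 10 counts in every library left only *Stfa2l1* and *BC100530*, so no median of the 5 was computed there. The median moved to 3.09 without SAG replicate 1 (3.09 to 4.40 with 1 library left out). The log2 ratio of the sum lay between 2.94 and 3.73, and that per neutrophil marker count between 0.79 and 2.04, with 1 library left out. The distance of *Stfa2* and *BC100530* was 10.7% without SAG replicate 1. The fitted log2 fold change of *Stfa3* depends on the prior count (9.58 at 0.5 and 6.27 at 5).

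Over all genes, DESeq2 called 797 higher and 390 lower, and limma voom 995 and 398. Among the members, which were chosen from this contrast, limma voom called *Stfa1*, *Stfa2l1*, and *Stfa3*, and not *BC100530*. With at least 10 counts in every library 87 were lower. With 1 library left out, 80 to 1017 genes were higher (80 without DMSO replicate 2, 1017 without DMSO replicate 4) and 4 to 343 lower, and in the cystatin and protease lists 1 to 4 higher and 0 to 1 lower. Limma voom called 1 lower in these lists.

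With the replicate block, 334 genes were higher and 18 lower, 3 members were called, and *Serpinb1a* lost its call (adjusted p = 0.0599 from edgeR). Same-numbered libraries deviated together with correlations of 0.010 to 0.12, and 2 of 4 matched their own number best, so the numbers were not taken as pairs.

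Uncalled genes that changed sign did so within these ranges with 1 library left out: *Cst7* -0.075 to 0.72, *Ctsb* -0.0088 to 0.43, *Ctsc* -0.056 to 0.67, *Kpna1* -0.059 to 0.27, *Wdr5b* -0.16 to 0.57, *Casr* -0.16 to 1.04, *Cd86* -0.19 to 0.35, *Ildr1* -3.09 to 1.82, and *2010005H15Rik* -1.52 to 0.86. *Cd86* was also -0.021 with DESeq2, -0.022 and -0.052 with its size factors and plain library size, and -0.015 without a filter, and *Ildr1* was 0.88 with limma voom. The cause of these moves was not tested. With 4 mice per group and 0 to 534 counts per member in DMSO libraries, the size of each fold is imprecise.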
